A study of Rattus norvegicus with 12 samples.

Results

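The phase II conjugation enzymes are the UDP-glucuronosyltransferases (Ugt), the glutathione S-transferases (Gst), the microsomal glutathione S-transferases (Mgst) and the sulfotransferases (Sult). They were taken from the array's annotation as every gene whose symbol begins with Ugt1 or Ugt2, with Gsta, Gstk, Gstm, Gsto, Gstp or Gstt, with Mgst and a digit, or with Sult1 to Sult5, each gene read by its brightest probe. This gave 36 of the 14497 genes named by a single symbol: 7 Ugt, 2 Mgst, 17 Gst and 10 Sult. The 9 Ugt and Mgst members were treated as membrane-bound and the 27 Gst and Sult members as cytosolic. The fetuses, of the Sprague Dawley strain of rat, were delivered on day 19 of gestation, where term is day 21, and their livers were frozen. Control dams ate ad libitum, and the other dams were fasted for 48 hr from day 17, a model of intrauterine growth restriction. Total RNA and polysome RNA were measured from each diet, with 3 arrays in each of the 4 groups and 12 arrays in all. Per the labels, there were 3 dams per diet, and arrays within a group are biological replicates. Polysome RNA was, by the labels, extracted from pooled polysome preparations, with no word on what was pooled. The labels do not state which total and polysome arrays came from the same liver. A liver number below stands for the replicate number of a diet's arrays.

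Conjugation makes drugs, steroids, bilirubin and reactive chemicals more soluble and ready for export. A Ugt enzyme is anchored in the endoplasmic reticulum with its active site in the lumen, where it transfers glucuronic acid from UDP-glucuronic acid, whereas the Gst and Sult enzymes work mostly in soluble form with glutathione or with the sulfate donor PAPS. Messenger RNAs of membrane and secreted proteins are mostly translated on ribosomes bound to the endoplasmic reticulum, those of cytosolic proteins mostly on free ribosomes. In the rodent liver many conjugation genes mature around birth, and some are low before it.

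The values were RMA intensities, written here as log2(intensity + 1), and a change is a difference of group means on that scale with its SE from a limma model of all 12 arrays. A change was called at a Benjamini-Hochberg adjusted p under 0.05 over 10174 genes, those with a mean of at least 6.07 log2. Array medians ran from 101.3 to 108.3 intensity units, and replicate arrays had correlations of 0.9914 to 0.9961 over probes, against 0.9816 to 0.988 between fractions. Of 10 hepatocyte markers, all 10 lay above that level, and their summed intensity was 109100 to 115100 in total RNA and 94350 to 102600 on polysomes. With fasting their median change was 0.0075 log2 in total RNA and 0.0099 on polysomes. With bulk RNA, fewer cells of a type and less RNA per cell cannot be told apart.

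Of the 36 members, 23 reached the level needed for testing: 3 of 7 Ugt, both Mgst, 14 of 17 Gst and 4 of 10 Sult. The 13 below it were Ugt2a1, Ugt2a3, Ugt2b, Ugt2b7, Gstm6, Gstm6l, Gsto2, Sult1c2, Sult1c3, Sult1d1, Sult2a1, Sult2a2 and Sult5a1. Sult5a1 came nearest at a mean of 5.996, and Sult2b1 at 6.33 and Ugt2b37 at 6.10 lay just inside. The hydroxysteroid sulfotransferases Sult2a1 and Sult2a2, strongly expressed in adult female rat liver, had means of 4.10 and 5.21 on their own probes, while a probe shared by Sult2a2 and Sult2a6 had group means of 7.07 to 8.16. The 3 members with the highest probe values among the Gst were Gstm1, Gsta1 and Gsto1, although values of different probes cannot be ranked as amounts of RNA.

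**Figure D1:**
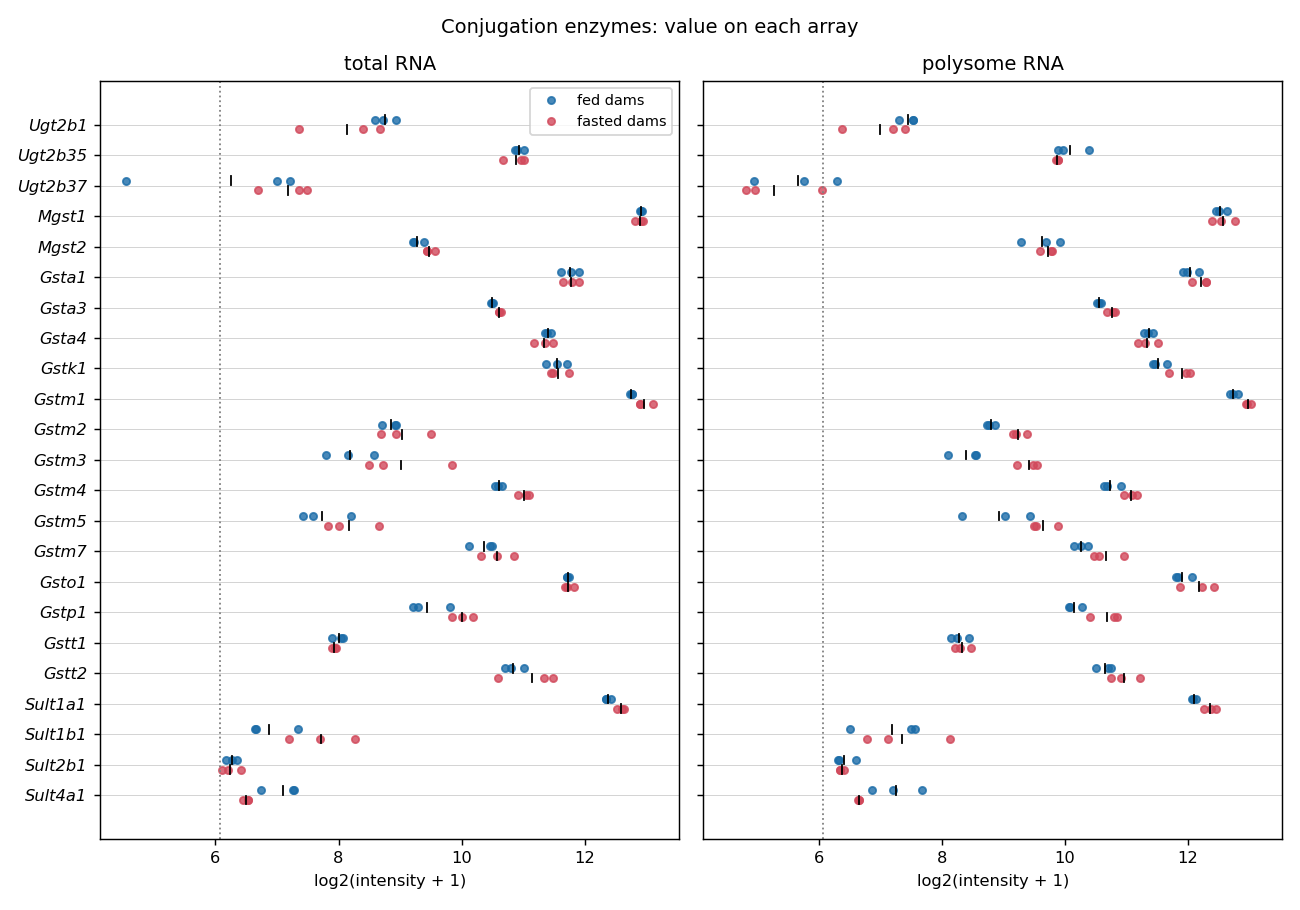
Value of the 23 tested members on each of the 12 arrays, as log2(intensity + 1) on the horizontal axis, with total RNA on the left and polysome RNA on the right; points are arrays, black ticks are means of 3 arrays, and the dotted line is the 6.07 level needed for testing. The mu-class Gst members of fasted dams lie to the right of those of fed dams on polysomes, and Ugt2b37 of the fed dams spreads from 4.55 to 7.20 in total RNA.

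The comparison of polysome with total RNA asks which messages were held in the ribosome-bound fraction relative to the whole liver RNA and to other messages. In livers of fed dams 4 of 23 members were called higher and 4 lower on polysomes, against 43.5% of all genes called in either direction (24.1% higher and 19.4% lower). In livers of fasted dams 6 were called higher and 5 lower, against 43.7% of all genes (25.5% and 18.2%). At an unadjusted p under 0.05 limma found 9 of 23 members in fed and 12 of 23 in fasted livers, beside 50.8% and 50.7% of all genes. Fractions were separate with polysome arrays higher for 6 of 23 members in fed and 8 of 23 in fasted livers (29.4% and 31.1% of all genes), and lower for 4 of 23 in each (23.5% and 21.5%). Ugt2b37, 1 of the 5 called lower in fasted livers, reached the level needed for testing only through total RNA, which favoured a lower reading on polysomes, so it is kept apart here. Of the other 4 membrane-bound members, 3 were called lower and 1 higher in fed livers, and 3 lower and 0 higher in fasted livers, with limma. Of the cytosolic members, 3 of 18 were higher and 1 of 18 lower in fed livers, and 6 of 18 were higher and 1 of 18 lower in fasted livers. The other 14 and 11 cytosolic members were not called, and beside the shares of all genes the cytosolic counts are no result about the class. The 2 comparisons use separate arrays.

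Ugt2b1, which glucuronidates steroids and opioids, had total RNA values of 8.72, 8.94 and 8.59 and polysome values of 7.53, 7.53 and 7.30 in fed livers 1 to 3. Every polysome array lay below every total RNA array, and the change was -1.30 ± 0.30 log2 (SE, 3 against 3 arrays), or 2.46-fold lower, with an adjusted p of 0.0032 in limma. In fasted livers Ugt2b1 stood at 8.40, 7.36 and 8.67 in total RNA and at 7.21, 6.37 and 7.40 on polysomes. Liver 2 was the lowest in both fractions, so the groups overlapped, yet each liver fell by a similar amount, 1.19, 0.984 and 1.27 log2 on its own arrays. The change was -1.15 ± 0.30 log2 (adjusted p = 0.0067, limma).

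Ugt2b35 measured 10.90, 10.87 and 11.02 in total RNA of fed livers and 9.89, 9.98 and 10.40 on their polysomes. In fasted livers it measured 10.96, 10.68 and 11.01 in total RNA and 9.89, 9.89 and 9.86 on polysomes. The fractions did not overlap in either diet, and the 3 fasted polysome arrays lay within an SD of 0.016. Ugt2b35 fell by 0.85 ± 0.12 log2 in fed livers (1.80-fold, adjusted p = 0.000123) and by 1.01 ± 0.12 log2 in fasted livers (2.01-fold, adjusted p = 3.02e-05), both by limma.

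Ugt2b37 was the least steady member. Its total RNA values were 4.55, 7.20 and 7.01 in fed livers and 7.49, 6.70 and 7.36 in fasted livers, and its polysome values were 4.95, 6.30 and 5.76 and then 4.97, 4.82 and 6.06. Fed liver 1 was low in both fractions, below the level needed for testing, and it was the only liver without a lower polysome value. The change in fed livers was -0.59 ± 0.58 log2 (adjusted p = 0.444). Without the total RNA array of fed liver 1 it was -1.44 log2, with an adjusted p of 0.0124. Both polysome means, 5.67 and 5.28, lay under the level needed for testing, so no fold is given and no statement rests on this gene's calls. In fasted livers the difference was -1.90 ± 0.58 log2 (adjusted p = 0.0173, limma). It did not pass without any 1 of total RNA replicates 1 and 3 or polysome replicates 1 and 2 of the fasted livers, or with trend and robust priors, at an adjusted p of at most 0.0627.

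Mgst1, a trimeric enzyme of the endoplasmic reticulum and outer mitochondrial membrane that also reduces lipid hydroperoxides, read 12.93, 12.92 and 12.90 in total RNA of fed livers and 12.51, 12.45 and 12.63 on their polysomes. Fasted livers gave 12.92, 12.82 and 12.94 in total RNA and 12.77, 12.39 and 12.54 on polysomes. All polysome values lay below all total RNA values within each diet. Mgst1 fell by 0.38 ± 0.09 log2 in fed livers (adjusted p = 0.0044) and by 0.33 ± 0.09 log2 in fasted livers (adjusted p = 0.0108).

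Mgst2, a related membrane enzyme that can also form leukotriene C, went the other way. It read 9.21, 9.39 and 9.23 in total RNA of fed livers against 9.28, 9.70 and 9.93 on polysomes, and 9.56, 9.44 and 9.43 against 9.77, 9.80 and 9.60 in fasted livers. The polysome value was the higher in all 6 livers, though the fractions overlapped in the fed group. The change of 0.36 ± 0.13 log2 was called in fed livers (adjusted p = 0.0386), whereas 0.25 ± 0.13 in fasted livers was not (adjusted p = 0.146). The fed call was lost without fed total replicate 1 or 3, without fed polysome replicate 2 or 3, with no filter or on the compared arrays alone, at an adjusted p of up to 0.172. The fasted change passed without fed polysome replicate 1, without both arrays of fed liver 1 or on the compared arrays alone, at an adjusted p down to 0.035.

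Among the cytosolic members Gstm5, a mu-class enzyme, had the largest polysome excess in both diets. Its values in fed livers were 7.42, 8.20 and 7.58 in total RNA and 8.33, 9.43 and 9.03 on polysomes. In fasted livers they were 8.02, 8.67 and 7.83 in total RNA and 9.54, 9.90 and 9.49 on polysomes. The fractions were separate in both diets. Gstm5 rose by 1.20 ± 0.28 log2 in fed livers (2.29-fold, adjusted p = 0.0035) and by 1.48 ± 0.28 log2 in fasted livers (2.78-fold, adjusted p = 0.000814), past 99.8% of all genes in the fed livers.

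Gstp1, the pi-class enzyme long used as a marker of preneoplastic foci in rat liver, read 9.81, 9.21 and 9.29 in total RNA of fed livers and 10.08, 10.07 and 10.28 on polysomes. In fasted livers it read 10.18, 9.85 and 10.01, then 10.85, 10.41 and 10.80. No array of one fraction reached into the other within a diet, although fed liver 1 differed by only 0.27 log2 against 0.86 and 0.99 in the other fed livers. Gstp1 rose by 0.71 ± 0.16 log2 in fed livers (adjusted p = 0.0025) and by 0.67 ± 0.16 log2 in fasted livers (adjusted p = 0.0035).

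Gstt1, a theta-class enzyme that acts on small halogenated molecules, stood at 8.07, 7.90 and 8.04 in total RNA of fed livers and at 8.44, 8.15 and 8.25 on polysomes. The fasted livers gave 7.94, 7.90 and 7.96, then 8.48, 8.31 and 8.21. The fractions were separate in both diets, and the changes were 0.28 ± 0.09 log2 (adjusted p = 0.0246) and 0.40 ± 0.09 log2 (adjusted p = 0.0031). The fed call was lost without fed total replicate 2, fed polysome replicate 1 or both arrays of fed liver 1, at an adjusted p of up to 0.0977.

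Another 3 Gst members passed only the fasted comparison. Gsta1, an alpha-class enzyme also called ligandin that binds bilirubin and heme, was 11.64, 11.79 and 11.91 in total RNA of fasted livers and 12.29, 12.06 and 12.30 on polysomes, separate, and rose by 0.43 ± 0.11 log2 (adjusted p = 0.0047). In fed livers its change was 0.27 ± 0.11 log2 (adjusted p = 0.053), with separate groups; with each liver as a block it passed, and its lowest adjusted p over all alternatives was 0.0254. Gsto1, an omega-class thiol transferase, was 11.68, 11.71 and 11.82 in fasted total RNA and 12.43, 11.88 and 12.23 on polysomes, also separate, and rose by 0.44 ± 0.12 log2 (adjusted p = 0.0077). Its change in fed livers was 0.17 ± 0.12 log2 (adjusted p = 0.252). Gstk1, which by its symbol was counted as cytosolic but is known from mitochondria and peroxisomes, was 11.49, 11.75 and 11.46 and then 12.04, 11.69 and 11.97, with overlap because fasted liver 2 did not differ. Gstk1 rose by 0.33 ± 0.12 log2 (adjusted p = 0.0359), a call lost with no filter or without any 1 of replicates 1 and 3 of either fasted fraction, at an adjusted p of up to 0.135. In fed livers Gstk1 had a change of -0.02 ± 0.12 log2. The difference between diets was tested for every member, and none passed; for Gstk1 it was 0.35 ± 0.17 log2 (adjusted p = 0.856).

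Sult1a1, the main phenol sulfotransferase, was the only cytosolic member called lower. It read 12.35, 12.43 and 12.34 in total RNA of fed livers and 12.14, 12.09 and 12.06 on polysomes. Fasted livers gave 12.64, 12.53 and 12.61, then 12.46, 12.26 and 12.37. The fractions were separate in both diets, and Sult1a1 fell by 0.28 ± 0.07 log2 in fed livers (adjusted p = 0.007) and by 0.23 ± 0.07 log2 in fasted livers (adjusted p = 0.0187). The fasted call was lost with arrays centred on their median and without fasted total replicate 1 or 3 or fasted polysome replicate 2, at an adjusted p of up to 0.069. The other Sult members tested, Sult1b1, Sult2b1 and Sult4a1, passed in neither diet, with changes between -0.37 and 0.31 log2.

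**Figure D2:**
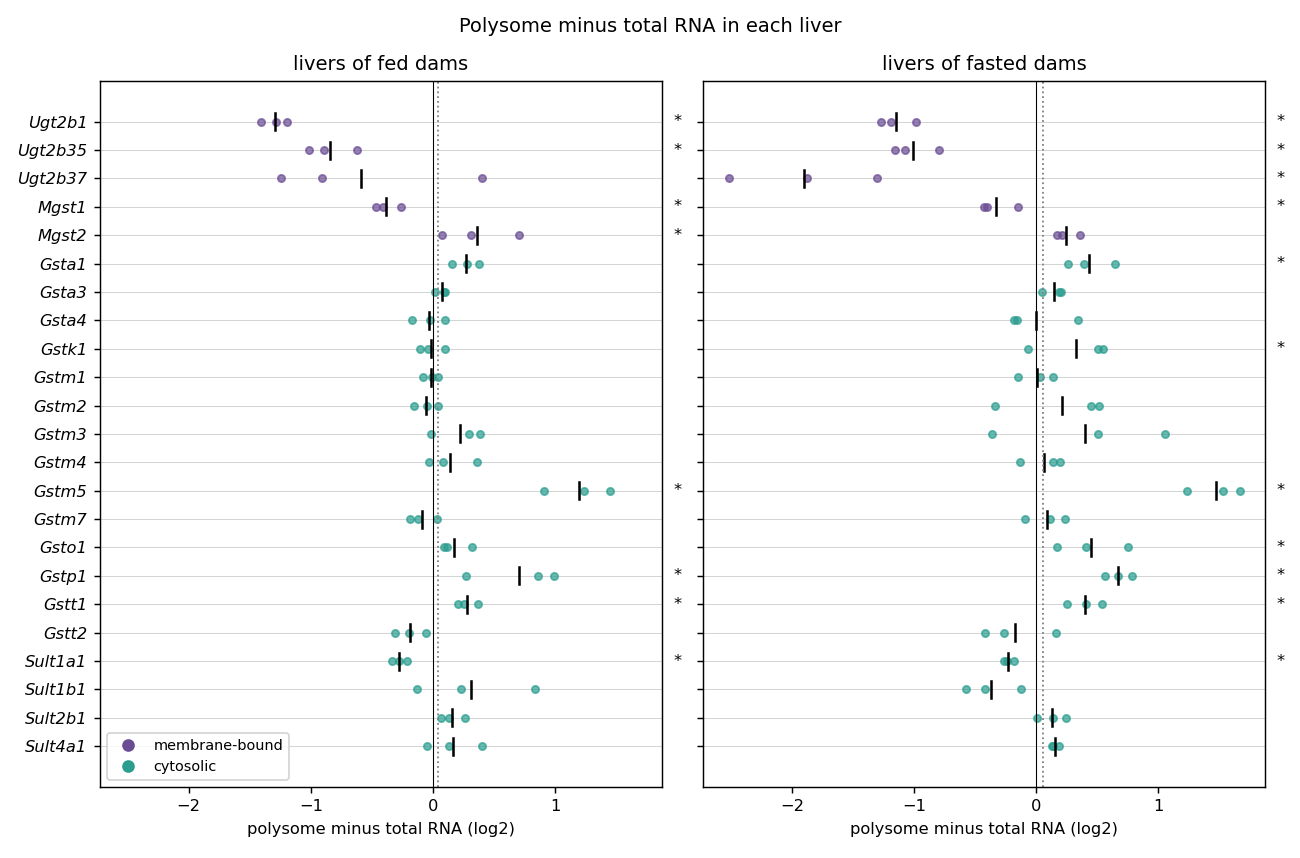
Polysome minus total RNA of each tested member in each liver, in log2 units on the horizontal axis, for fed dams on the left and fasted dams on the right; points are livers (total and polysome arrays of the same replicate number), black ticks are means of 3 livers, the dotted line is the median of all genes, and an asterisk marks an adjusted p under 0.05. Ugt2b1 and Ugt2b35 lie to the left in every liver, with means of -1.30 and -0.85 in fed and -1.15 and -1.01 in fasted livers, and Gstm5 has the highest mean; polysome means of Ugt2b37 are under the level needed for testing.

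By class, the median polysome minus total difference in fed livers was -0.59 log2 over the 5 membrane-bound members and 0.14 over the 18 cytosolic members, beside 0.04 over all genes. In fasted livers the medians were -1.01 and 0.15, beside 0.05. The class medians differed by -0.73 log2 in fed livers (SD 0.26 over 3 livers, from -0.97 to -0.45) and by -1.16 in fasted livers (SD 0.35, from -1.38 to -0.77). Over the 5 members, Ugt2b37 included, the membrane-bound median was the lower in all 6 livers. The fed membrane-bound median is the value of Ugt2b37 itself. With that gene left out, an alternative added after seeing the data, the membrane-bound medians were -0.61 and -0.67 log2 and the class differences -0.76 and -0.82. Mgst2 was the exception in each diet: the other 4 membrane-bound members, Ugt2b37 included, lay below the cytosolic median. With Ugt2b37 left out, 3 of 4 membrane-bound members lay below the lowest cytosolic member in fed livers and 2 of 4 in fasted livers. The members share their livers and arrays, so this is a description and has no p. With every measured member, the 13 dim ones included, the class difference shrank to -0.48 log2 in fed and -0.44 in fasted livers.

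Several conjugation enzymes share a probe with a near-identical gene and were not members, since such a probe cannot tell them apart; their values are given without a test. The probe common to 8 Ugt1a genes, which include the bilirubin-conjugating Ugt1a1, averaged 10.36 ± 0.08 (SD, n = 3) in fed and 10.37 ± 0.10 in fasted total RNA, and 9.89 ± 0.18 and 9.88 ± 0.15 on polysomes. Polysome values were the lower by 0.46 and 0.49 log2, and the fractions were separate in both diets. The probe of Ugt2b15 and Ugt2b37 read 8.76, 9.35 and 9.36 in fed total RNA and 7.53, 8.27 and 8.23 on fed polysomes, differences of -1.15 log2 in fed and -1.73 log2 in fasted livers. That probe was not low in fed liver 1 to the extent that the Ugt2b37 probe was. Among cytosolic enzymes, the probe of Sult2a2 and Sult2a6 was higher on polysomes by 0.90 log2 in fed and 1.09 log2 in fasted livers, both separate. The 2 probes of Gsta2 and Gsta5 were higher on polysomes by 0.21 to 0.26 log2.

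Other enzymes of foreign compound metabolism were listed by place in the cell, with earlier results of these data known. A role of place in the cell was not tested. Of all genes, 24.1% were called higher and 19.4% lower in fed livers, and 25.5% and 18.2% in fasted livers. Of 12 membrane-bound partners, 7 fell and none rose on polysomes in fed livers, and 8 fell and 1 rose in fasted livers (2 rose with each liver as a block). Their medians were -0.41 and -0.34 log2. Hsd11b1, which reactivates glucocorticoids in the endoplasmic reticulum lumen, fell by 1.02 ± 0.20 log2 in fed livers (adjusted p = 0.0014). Pgrmc1, a heme-binding partner of cytochromes P450, fell by 0.81 ± 0.08 log2 (adjusted p = 8.16e-06). Of 13 cytosolic partners, 2 rose and 3 fell in fed livers, and 2 rose and 2 fell in fasted livers, with medians of -0.04 and -0.07 log2. Ephx2, the soluble epoxide hydrolase, fell by 0.54 ± 0.19 log2 in fed livers (adjusted p = 0.0353), and Akr7a2, an aldehyde reductase, rose by 0.51 ± 0.10 log2 (adjusted p = 0.00088). The Ephx2 call was lost without fed total replicate 1 or 3 or fed polysome replicate 1 or 2 (adjusted p up to 0.129) and without both arrays of fed liver 1 (0.267).

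**Figure D3:**
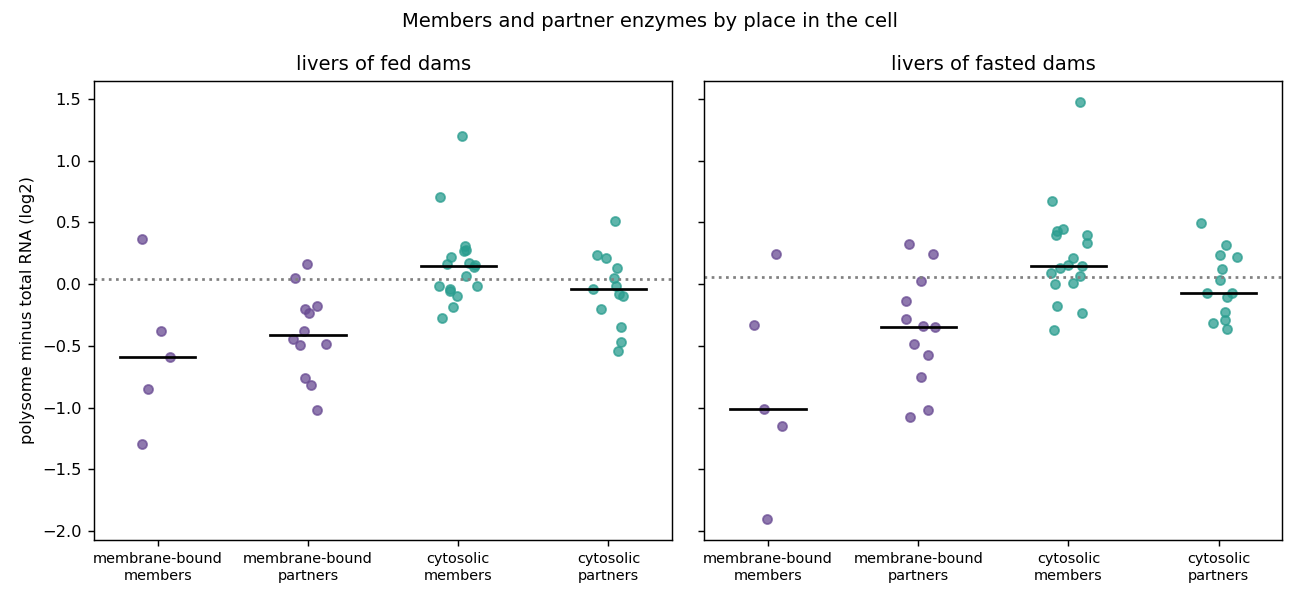
Polysome minus total RNA in log2 units on the vertical axis for the membrane-bound and cytosolic members and for the partner enzymes of each place in the cell, fed dams on the left and fasted dams on the right; each point is a gene's mean over 3 livers, bars are medians of the points, and the dotted line is the median of all genes. The membrane-bound groups have medians of -0.59 and -0.41 in fed livers, and the cytosolic groups lie at 0.14 and -0.04. The value of -0.59 is that of Ugt2b37, whose polysome means are under the level needed for testing. Without that gene the median is -0.61.

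Marker lists of other cell types moved with the fraction as well. The summed intensity of 9 stellate and mesenchymal markers was 7989 to 8891 in total RNA and 5207 to 5857 on polysomes, and that of 8 endothelial markers was 5816 to 7372 and 3880 to 4513. Their part in the members' differences was not tested. Hepatocyte markers, most of them secreted proteins, fell for 5 of 10 in fed and 6 of 10 in fasted livers (19.4% and 18.2% of all genes). Their medians were -0.16 and -0.18 log2.

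The donors, transporters and exits that serve the conjugating enzymes were read from lists, some of which share genes. Their counts stand beside 24.1% of all genes called higher and 19.4% lower in fed livers, and 25.5% and 18.2% in fasted livers. Of 4 genes of UDP-glucuronic acid supply, 2 fell on polysomes in fed livers: Ugdh, which makes the donor, by 0.26 ± 0.07 log2 in fed livers (adjusted p = 0.0061), and Slc35d1, which carries it into the endoplasmic reticulum, by 0.29 ± 0.09 log2 (adjusted p = 0.0235). The Slc35d1 call was lost without fed total replicate 1 or 2, fed polysome replicate 2 or 3, or both arrays of fed liver 1 (adjusted p up to 0.105). In fasted livers both genes passed as well, Slc35d1 at -0.30 ± 0.09 log2 (adjusted p = 0.0207) and Ugdh at -0.18 ± 0.07 log2 (adjusted p = 0.0387). That Ugdh call was lost with the liver or the replicate number as a fixed block, with arrays centred, with no filter and on the compared arrays alone (up to 0.115), and without fed total replicate 2, fasted total replicate 1 or 3 or any 1 fasted polysome array (up to 0.149). The fasted Slc35d1 call was lost with arrays centred (0.0534) and without fasted total replicate 1 or 3 or fasted polysome replicate 2 (up to 0.0792). Of 6 genes of PAPS supply, 1 rose and 3 fell in both diets. The sulfate transporter Slc26a1 fell by 0.67 ± 0.08 log2 in fed livers (adjusted p = 3.42e-05), and Bpnt1, which clears the by-product of sulfation, fell by 0.53 ± 0.08 log2 (adjusted p = 0.000282).

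Of 18 glutathione genes, 4 rose and 3 fell on polysomes in fed livers (24.1% and 19.4% of all genes). In fasted livers 3 rose and 3 fell (25.5% and 18.2% of all genes). The glutathione counts do not exceed these shares and are no result about the list. The cell-surface enzymes Ggt1 and Anpep, which break down glutathione and its conjugates outside the cell, fell by 0.65 ± 0.12 and 0.57 ± 0.08 log2 in fed livers (adjusted p = 0.000825 and 7.46e-05). Of 4 deconjugating enzymes, 3 fell in fed and 4 in fasted livers. Arsb, a lysosomal sulfatase, fell by 0.72 ± 0.11 log2 in fed livers (adjusted p = 0.000154), and Gusb, the lysosomal glucuronidase, by 0.28 ± 0.09 log2 (adjusted p = 0.0202), lost without fed total replicate 2 or fed polysome replicate 3 (up to 0.0961).

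Of 7 export pumps, 1 rose and 2 fell in fed livers and 5 fell in fasted livers. Among all genes 24.1% rose and 19.4% fell in fed livers, and 25.5% and 18.2% in fasted livers. Abcc6 rose by 0.35 ± 0.11 log2 in fed livers (adjusted p = 0.0192) and Abcc4 fell by 0.34 ± 0.11 log2 (adjusted p = 0.0195). Of 19 regulators of conjugation genes, 6 rose in fed livers, and 3 rose and 1 fell in fasted livers; with each liver as a block 1 also fell in fed livers. The liver transcription factors Foxa3 and Cebpa rose by 0.83 ± 0.18 and 0.53 ± 0.15 log2 in fed livers (adjusted p = 0.0023 and 0.012). NRF2 is the oxidant-sensing activator of many Gst genes. Of 14 other targets of NRF2, 3 rose and 2 fell in fed livers and 2 rose and 2 fell in fasted livers. Those counts do not exceed the shares of all genes and are no result about the list. In fasted livers 4 rose with livers as a random block and 5 as a fixed block. In fed livers Ephx1, the microsomal epoxide hydrolase, fell by 0.44 ± 0.10 log2 (adjusted p = 0.0024). Cbr1, a carbonyl reductase, fell in fed livers by 0.34 ± 0.09 log2 (adjusted p = 0.0065). Of 4 other conjugating enzymes, Gnmt, which methylates glycine, rose in fed livers by 0.40 ± 0.13 log2 (adjusted p = 0.0234). With 1 array left out, Gnmt was lost without fed total replicate 1 or 3 or fed polysome replicate 1 or 2 (adjusted p up to 0.101), Abcc4 without fed total replicate 3 or fed polysome replicate 1 (0.0798), Abcc6 without fed total replicate 2 or fed polysome replicate 3 (0.0739), and Cebpa without fed total replicate 1 (0.059). Without both arrays of fed liver 1 all 4 of these were lost, and Abcc4 also with the mean of its probes, at an adjusted p of at most 0.18.

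The comparison of fasted with fed dams asks whether maternal food restriction altered these enzymes. No member passed the threshold: 0 of 23 in total RNA, where 1.03% of all genes were called (0.737% higher and 0.295% lower), and 0 of 23 on polysomes, where 2.01% were called (1.59% higher and 0.423% lower). At an unadjusted p under 0.05, limma found 7 of 23 members in total RNA and 12 of 23 on polysomes, where it found 16.2% and 20.9% of all genes. The smallest adjusted p belonged to Gstm4 in both fractions, 0.0511 and 0.0638. The median change of the members was 0.19 log2 in total RNA and 0.20 on polysomes, against 0.00067 and 0.016 over all genes. Groups were separate with fasted arrays higher for 6 of 23 members in total RNA (12.9% of all genes) and 10 of 23 on polysomes (12.4%), and with fasted arrays lower for 1 of 23 in each fraction (11.9% and 8.38%).

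**Figure D4:**
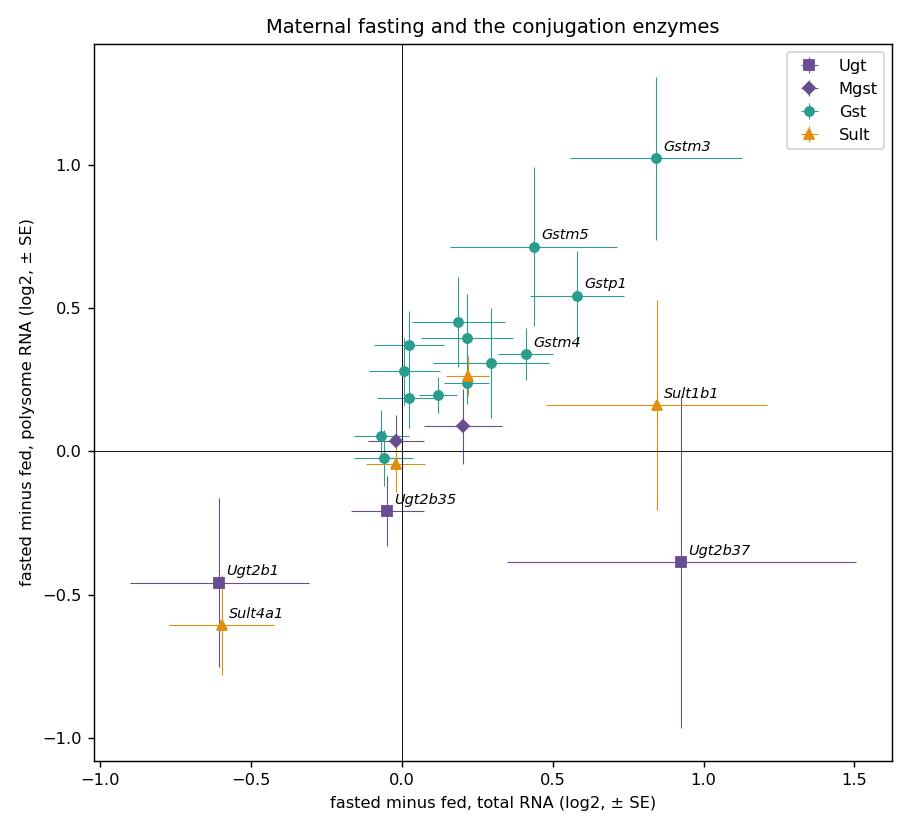
Change with maternal fasting of the 23 tested members, as fasted minus fed in log2 units with total RNA on the horizontal axis and polysome RNA on the vertical axis; each point is a gene, bars are SEs from the limma model, and shape and colour mark the family. The Gst members lie mostly in the upper right, up to 0.84 and 1.02 for Gstm3, and no point passed the adjusted threshold on either axis.

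The mu-class Gst members, which conjugate epoxides and quinones, had higher means in fasted livers in 6 of 6 tested genes and in both fractions. Of all 10174 genes, 5111 had higher fasted means in total RNA and 5490 on polysomes. On polysomes 6 of 6 mu-class genes had separate groups with fasted arrays higher (12.4% of all genes), with a median change of 0.42 log2. In total RNA 2 of 6 did (12.9% of all genes), with a median of 0.31. These genes lie together, with 8 Gstm members in a run of 9 protein-coding genes on chromosome 2 of the GRCr8 assembly, and their sequences are alike, so probes of neighbours can share signal. They were singled out after their values were seen. In total RNA the means lean on fasted liver 2: without its total RNA array the change of Gstm2 was -0.04 log2, that of Gstm3 fell from 0.84 to 0.43 and that of Gstm5 from 0.44 to 0.19. On polysomes all 6 changes stayed above 0 in every alternative, from 0.21 log2 upwards.

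Gstm4 read 10.59, 10.66 and 10.55 in total RNA of fed livers and 10.91, 11.09 and 11.04 in fasted livers, a change of 0.41 ± 0.09 log2. On polysomes it read 10.68, 10.63 and 10.91, then 11.10, 10.96 and 11.17, a change of 0.34 ± 0.09 log2. Every fasted array exceeded every fed array in both fractions. Gstm4 passed in total RNA with quantile normalization, with trend and robust priors and without fasted polysome replicate 2, fed polysome replicate 1 or fed polysome replicate 3, down to an adjusted p of 0.0319. On polysomes it passed with trend and robust priors and without fasted polysome replicate 2, down to 0.0304.

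Gstm3 had the largest change among the mu-class genes. Its values were 8.58, 7.80 and 8.16 in fed total RNA and 8.72, 9.85 and 8.50 in fasted total RNA, where liver 2 stood high and the groups overlapped. On polysomes it read 8.56, 8.10 and 8.54 in fed and 9.23, 9.48 and 9.55 in fasted livers, without overlap. The changes were 0.84 ± 0.29 log2 (adjusted p = 0.169) and 1.02 ± 0.29 log2 (adjusted p = 0.072, limma). On polysomes it passed on the compared arrays alone and without fasted total replicate 2, down to an adjusted p of 0.0265.

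Gstm1 read 12.77, 12.73 and 12.77 in fed and 12.90, 13.11 and 12.90 in fasted total RNA, separate, with a change of 0.21 ± 0.07 log2 (adjusted p = 0.178). On polysomes its change was 0.24 ± 0.07 log2 (adjusted p = 0.0987), again separate, and it passed with trend and robust priors (adjusted p = 0.0431). Gstm5 had changes of 0.44 ± 0.28 and 0.71 ± 0.28 log2, Gstm2 of 0.19 ± 0.16 and 0.45 ± 0.16, and Gstm7 of 0.21 ± 0.15 and 0.40 ± 0.15 in total RNA and on polysomes. For Gstm2, Gstm5 and Gstm7 the groups overlapped in total RNA and were separate on polysomes. There Gstm2 passed without fasted total replicate 2 (adjusted p = 0.0437) and Gstm5 with replicate numbers as blocks (adjusted p = 0.0319). The difference between the fractions was itself tested for each and had an adjusted p of at least 0.894 among the 6 mu-class genes.

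Gstp1 on the same arrays as above was separate by diet in both fractions, with changes of 0.58 ± 0.16 log2 in total RNA (adjusted p = 0.0947) and 0.54 ± 0.16 log2 on polysomes (adjusted p = 0.0789). It passed in total RNA with replicate numbers as blocks and without fed total replicate 1, down to an adjusted p of 0.0407. On polysomes it passed with replicate numbers as blocks and without fasted polysome replicate 2, down to 0.0279. Fed liver 1 had the highest Gstp1 value of the fed total RNA arrays. The alpha-class members moved less: Gsta1 by 0.02 ± 0.11 and 0.19 ± 0.11 log2, Gsta3 by 0.12 ± 0.06 and 0.20 ± 0.06, and Gsta4 by -0.06 ± 0.10 and -0.02 ± 0.10. The shared probes of Gsta2 and Gsta5 were 0.25 to 0.30 log2 higher in fasted livers. Gsto1 had changes of 0.01 ± 0.12 and 0.28 ± 0.12 log2, and Gstk1 of 0.02 ± 0.12 and 0.37 ± 0.12; without fasted polysome replicate 2 both passed on polysomes, at lowest adjusted p values of 0.0252 and 0.0337. Without that array 5 members in all passed there.

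Sult4a1, a sulfotransferase known mainly from brain, ran against the Gst members. It read 7.27, 6.74 and 7.28 in fed and 6.52, 6.45 and 6.53 in fasted total RNA, and 7.21, 6.87 and 7.69 in fed and 6.66, 6.63 and 6.66 in fasted polysome RNA. Every fasted array lay below every fed array, with changes of -0.60 ± 0.17 log2 (adjusted p = 0.112) and -0.61 ± 0.17 log2 (adjusted p = 0.0793). On polysomes Sult4a1 passed with replicate numbers as blocks (adjusted p = 0.04365). Sult1a1 was separate in the other direction, by 0.22 ± 0.07 and 0.26 ± 0.07 log2 (adjusted p = 0.154 and 0.0662). On polysomes Sult1a1 passed with trend and robust priors and without fasted polysome replicate 2, down to an adjusted p of 0.0294. Sult1b1, which sulfates thyroid hormones, read 6.64, 6.66 and 7.34 in fed and 7.70, 7.20 and 8.27 in fasted total RNA, a change of 0.84 ± 0.37 log2 (adjusted p = 0.281) with overlap. On polysomes Sult1b1 had a change of 0.16 ± 0.37 log2, and the difference between fractions, -0.68 ± 0.52 log2, did not pass (adjusted p = 0.887).

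The membrane-bound members had no common direction with fasting. Ugt2b1 had changes of -0.61 ± 0.30 log2 in total RNA (adjusted p = 0.334) and -0.46 ± 0.30 on polysomes (adjusted p = 0.406), with fasted liver 2 the lowest in both. Ugt2b35 had changes of -0.05 ± 0.12 and -0.21 ± 0.12 log2. Ugt2b37 had changes of 0.93 ± 0.58 and -0.39 ± 0.58 log2, of which the first rests on fed liver 1. Mgst1 had changes of -0.02 ± 0.09 and 0.03 ± 0.09 log2, and Mgst2 of 0.20 ± 0.13 and 0.09 ± 0.13. The shared Ugt1a probe differed by 0.01 and -0.02 log2.

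The difference between the fasting effects on polysomes and in total RNA asks whether fasting moved a message on or off ribosomes relative to other messages. It passed for 0 of 23 members and for 0.0% of all genes. A shift common to all messages would not show, as array medians were alike (101.3 to 108.3 intensity units). At an unadjusted p under 0.05 limma found 0 of 23 members and 5.4% of all genes. The members' differences had a median of 0.05 log2.

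Summed intensities of some marker lists of other cells differed with diet, though most of their genes were not called. The summed intensity of 10 macrophage markers was 7818 to 8094 in fed and 8483 to 9592 in fasted total RNA, and 5801 to 6017 and 6756 to 7105 on polysomes. Endothelial markers were separate by diet as well, at 5816 to 6451 and 7287 to 7372 in total RNA. Of 10 macrophage markers, 0 were called higher in total RNA and 2 on polysomes. Of 8 endothelial markers, 3 and 1 were called higher, against 0.737% and 1.59% of all genes. Exocrine pancreas markers ran from 918.7 to 3800 in fed and from 847.7 to 872.3 in fasted total RNA. On polysomes they overlapped, at 716.4 to 1121 in fed and 839.5 to 998.7 in fasted livers. Their part in the members' values was not tested. Erythroid markers ran from 42410 to 44880 in fed and from 42400 to 43710 in fasted total RNA.

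A few genes around the conjugating enzymes did pass with fasting, where 1.03% of all genes were called in total RNA and 2.01% on polysomes. In total RNA Gclc, the catalytic subunit of the first enzyme of glutathione synthesis, fell by 0.53 ± 0.11 log2 (1.44-fold, adjusted p = 0.0384), as 1 of 18 glutathione genes and 1 of 14 other NRF2 targets; no other gene of either list passed in total RNA or on polysomes. Steroid sulfatase Sts, 1 of 4 deconjugating enzymes, rose by 0.59 ± 0.11 log2 (adjusted p = 0.03), and Fmo5, a flavin monooxygenase and 1 of 12 membrane-bound partners, rose by 0.41 ± 0.09 log2 (adjusted p = 0.043). On polysomes Papss2, a PAPS synthase and 1 of 6 genes of PAPS supply, rose by 0.47 ± 0.08 log2 (adjusted p = 0.0199). Gnmt, 1 of 4 other conjugating enzymes, rose by 0.56 ± 0.13 log2 (adjusted p = 0.0435), and Abcc4, 1 of 7 export pumps, fell by 0.46 ± 0.11 log2 (adjusted p = 0.0451). None of the 4 genes of UDP-glucuronic acid supply, 19 regulators or 13 cytosolic partners passed in either fraction. At an unadjusted p under 0.05 limma found 1, 6 and 3 of them in total RNA (16.2% of all genes). On polysomes it found 1, 3 and 2 (20.9% of all genes). These 6 calls stood near the threshold: of 12 fits that each left out 1 array, Papss2 passed in 8, Sts in 7, Gclc in 5, Fmo5 in 4, and Gnmt and Abcc4 in 3. Papss2 was lost without fed or fasted polysome replicate 3, fed polysome replicate 2 or fasted polysome replicate 1 (adjusted p up to 0.0925). Sts was lost without any 1 fed total array or fasted total replicate 1 or 2 (up to 0.12), and Gclc without these or fed polysome replicate 2 or fasted polysome replicate 1 (up to 0.134). Fmo5 passed without fed polysome replicate 1 or 3 or fasted polysome replicate 1 or 2, and otherwise reached up to 0.147. Gnmt and Abcc4 passed without replicate 1 of fed or replicate 2 of fasted polysomes, Gnmt also without fed total replicate 2 and Abcc4 without fasted total replicate 1, and otherwise reached up to 0.166 and 0.161. On the compared arrays alone Papss2, Sts, Gclc, Gnmt and Abcc4 were lost, with no filter Gclc, Fmo5, Gnmt and Abcc4, without both arrays of fed liver 1 Fmo5, Gclc, Sts and Gnmt, and with arrays centred Abcc4, at adjusted p values of up to 0.117.

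NRF2 acts through the antioxidant response element, whose core TGACNNNGC was searched on both strands in the 250 bases before each gene's start, in RefSeq promoters of the GRCr8 assembly. Of 27457 promoters 10.17% held it, and of 30 members with a promoter 4 did: Gsta3, Gstm5, Gstm7 and Gstp1. That is near the share of all promoters. The element is the textbook control site of Gst genes, and for that reason the stretch around each core is shown, with the core in capitals, on the gene's strand and 5′ to 3′. Gstm5 holds the core at 2 places, 113 and 53 bases before the start, and in the others it begins 17 (Gsta3), 14 (Gstm7) and 61 (Gstp1) bases before it.
Gsta3, chr9:31154936-31154988, plus strand: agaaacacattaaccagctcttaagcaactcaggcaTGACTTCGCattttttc
Gstm5, chr2:198219620-198219700, plus strand: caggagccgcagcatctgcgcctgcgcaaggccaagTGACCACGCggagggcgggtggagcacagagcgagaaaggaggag
Gstm5, chr2:198219680-198219760, plus strand: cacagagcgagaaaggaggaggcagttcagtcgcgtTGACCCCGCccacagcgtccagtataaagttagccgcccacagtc
Gstm7, chr2:198260320-198260369, minus strand: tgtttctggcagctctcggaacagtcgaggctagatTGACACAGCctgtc
Gstp1, chr1:210769722-210769802, minus strand: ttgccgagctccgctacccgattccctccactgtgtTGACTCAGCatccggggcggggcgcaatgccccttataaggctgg
Of the tested mu-class members, Gstm1, Gstm2, Gstm3 and Gstm4 were not among those with a match. A link between a match and a fasting change was not tested. The core of the xenobiotic response element, GCGTG, which binds the aryl hydrocarbon receptor, was in 27.17% of all promoters and in 5 of 30 members, namely Gsta4, Gstm4, Gstm5, Gstp1 and Sult2b1. A match describes the letters only.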

How the data were processed

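Liver RNA was hybridised to 12 Affymetrix Rat Gene 1.0 ST arrays. The deposited intensity values came from the authors' RMA run, as listed in the submitters' processing notes, and the RMA version was not stated there. Values between 3.62 and 21344 show a linear scale, so log2(value + 1) was taken. Of 28826 probes, 15209 carried 1 gene symbol in the platform annotation (14497 genes, brightest probe each) and 306 several; the 36 members were matched to current symbols by Entrez identifier. Genes with a mean at or above the 40th percentile of all probes (6.07 log2) were tested, 10174 in all.

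A limma 3.58.1 cell means model (in R 4.3.3, with 8 residual degrees of freedom and 5.16 from the eBayes prior) gave 5 contrasts with two-sided p-values, adjusted by Benjamini-Hochberg. A change had a median SE of 0.0945 log2; the number of arrays limits the precision. Same-numbered total and polysome arrays of a diet deviated together (r = 0.15 to 0.36 in 6 pairs), while those of other numbers had r of -0.22 to -0.023. Numbers were therefore read as livers within a diet. The labels do not state this pairing, so it is an assumption. Across diets same-numbered arrays did not deviate together (-0.14 to 0.25). Named genes were each member past the threshold, the 3 brightest of Ugt, Gst and Sult, all Mgst, genes of the lists past the threshold with fasting, and the 2 largest fed polysome differences per list; further members were named after their values were seen. The members and lists were chosen with earlier results of these data known. A planned reading of protein sequences was not run. Alternatives changed the filter, normalization, probe choice, priors, offset, arrays and blocking. Figures used Python 3.11.15 and matplotlib 3.10.9.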

Additional observations from a re-analysis of the deposited data

Results flagged for a closer look

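Abcc3, a pump that exports glucuronides to the blood and is 1 of the 7 export pumps, had a polysome minus total difference above 0 in all 3 fed livers (0.06, 0.10 and 0.02 log2) and below 0 in all 3 fasted livers (-0.49, -0.08 and -0.38 log2). The difference between the diets was -0.38 ± 0.14 log2, with an adjusted p of 0.856 in limma. Total RNA means were 8.73 in fed and 9.16 in fasted livers, and polysome means were 8.79 and 8.84. Abcc3 was picked from the members and list genes because its signs were opposite in all livers of the diets. How many of all genes meet that rule was not counted.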

How the results depend on the processing

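Limits are the 3 arrays per group, polysome preparations pooled in an unstated way, probes shared between near-identical genes, and 13 members too dim to test. Without 1 array at a time, members called higher with fasting ranged from 0 to 1 in total RNA and from 0 to 5 on polysomes (most without fasted polysome replicate 2), all genes from 17 to 147 and from 11 to 755, and the difference between fractions stayed at 0. For polysome against total RNA, members higher ranged from 3 to 5 in fed and 5 to 8 in fasted livers, members lower from 4 to 5 and 3 to 6, and all genes from 3661 to 4541 and 3614 to 4655. The class difference over the 5 membrane-bound members, Ugt2b37 included, ranged from -1.02 to -0.45 log2 in fed livers. In fasted livers it ranged from -1.30 to -1.02. With Ugt2b37 left out and all arrays kept, the class difference was -0.76 in fed and -0.82 in fasted livers.

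In total RNA, fasted against fed, members higher came to 1 with quantile normalization, with replicate numbers as blocks and with trend and robust priors. All genes called, 105, came to 24 without both arrays of fed liver 1 (added after seeing the data), 57 with no filter and 42 on the compared arrays alone. On polysomes members higher came to 1 on the compared arrays alone, 2 with the replicate block and 3 with trend and robust priors, and members lower to 1 with the replicate block. All genes called, 205, came to 335 without fed liver 1, 93 with no filter, 40 on the compared arrays alone, 309 with the replicate block and 394 with trend and robust priors. The numbers do not pair the diets, so the block is shown only as an alternative. With no filter, and equally over all measured members, the fasted class difference was -0.44 log2. The causes were not tested. No called value changed sign in any alternative. With livers as blocks Gsta1 in fed livers, and by the random block Gsta3 in fasted livers, also passed for polysome against total RNA, and no other member's call changed. By the fixed block Ugdh and Tpmt in fasted livers were lost. The compared arrays alone cannot give the difference between fractions, and the planned protein features were not run.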

Other observations

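Gsta4 was read by 2 probes that disagreed on the fraction: polysome minus total RNA was -0.04 log2 in fed and 0.001 in fasted livers with the brighter probe, which was used, and 0.21 and 0.24 with the dimmer one. Both gave the same reading of fasting, -0.06 and -0.05 log2 in total RNA.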
